A study of Mus musculus with 6 samples.

Results

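The genes described here are 5 immunoglobulin-type costimulatory and inhibitory receptors and ligands of T cells, namely Cd28, Ctla4, Cd86, Pdcd1lg2 and Cd200. They were selected by gene symbol from the authors' deposited table, which named 688 genes, and they are measured there by 6 of the 22749 features on the array. Their expression was compared between Irf4 -/- (null) and Irf4 +/- (heterozygous) T cells of C57BL/6J background, with 3 samples of each genotype. Splenic naive T cells (CD4+, high in CD62L, without CD25) were kept for 42 h on plates coated with antibody to CD3, with IL-6, IL-23, TGF-beta, antibody to CD28 and blocking antibodies to IL-4 and interferon gamma, which polarize cells to the Th17 fate. Every sample, of either genotype, therefore received an antibody against the product of 1 of the genes described, Cd28. The controls carry 1 disrupted Irf4 allele, and wild-type cells were not analysed here. The sources used here give neither the ages of the mice nor whether replicates were separate animals or separate cultures. The p-values therefore measure the spread between the 6 samples, which may be technical. Cy5-labelled RNA of each sample was hybridised with a Cy3-labelled reference pool of RNA from 11 mouse tissues, and every value below is a log2 ratio of sample to that reference, or a difference of such ratios.

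T cells need a signal from the antigen receptor and a second one from costimulatory receptors. CD28 gives the second signal when it binds CD80 or CD86, both of the B7 family, on an antigen-presenting cell, and it raises IL-2 production and survival. CTLA-4 binds the same ligands with higher affinity, is induced after activation and restrains the response, also by removing CD86 from other cells. PD-L2, encoded by Pdcd1lg2, is a ligand of the inhibitory receptor PD-1. CD200 is a related membrane protein whose receptor CD200R1 inhibits mainly myeloid cells.

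In Irf4 null cells Cd86 fell 5.45-fold. Ctla4 had the largest difference of the 5, with a mean 11.1-fold below that of heterozygous cells, but its null samples were widely spread and it did not pass the test (limma adjusted p = 0.0632). The means of Cd200 and Cd28 were 2.67-fold and 2.35-fold below those of heterozygous cells, and that of Pdcd1lg2 was 2.52-fold above, and none of these 3 passed. At an adjusted p under 0.05 (limma with Benjamini-Hochberg adjustment over 22621 rows), 1 of the 5 genes was called, against 2.44% of all rows (1.17% called lower and 1.26% called higher in null cells) and 51.9% of the 688 named genes. An unadjusted limma p under 0.05 was found for all 5 genes and for 20.4% of all rows. For the 5 genes this was nearly fixed by the authors' selection, described below, so it cannot be set against the share of rows. With 1 sample left out, the 551 rows called became 184, 30 and 239 without null replicates 1, 2 and 3, and 80, 186 and 46 without heterozygous replicates 1, 2 and 3, and Cd86 was called in 2 of these 6 fits. The median log2 fold change was -1.42 over the 5 genes and -0.05 over all rows. Every named gene had been listed by the authors for a change over 2-fold and an unadjusted p under 0.05 between these same samples. That selection sets in part the sizes and the p-values of these genes, and their directions were read from the same samples.

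Array medians lay between -0.03 and 0.06, and 0.673% to 5.28% of the ratios on an array were exactly 0, with the highest share on null replicate 1. Null replicate 1 correlated with null replicates 2 and 3 at r = 0.936 and 0.915 across features, which are not independent replicates, whereas the correlation of null replicate 3 with heterozygous arrays was 0.930 to 0.938. The targeted gene was low in each null sample. Irf4 had log2 ratios of 0.62, 0.65 and 0.73 in null cells and 3.02, 2.85 and 2.93 in heterozygous cells, a 4.81-fold fall (limma adjusted p = 0.00351). Whether its feature lies in the deleted part of the gene is not known here.

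**Figure D1:**
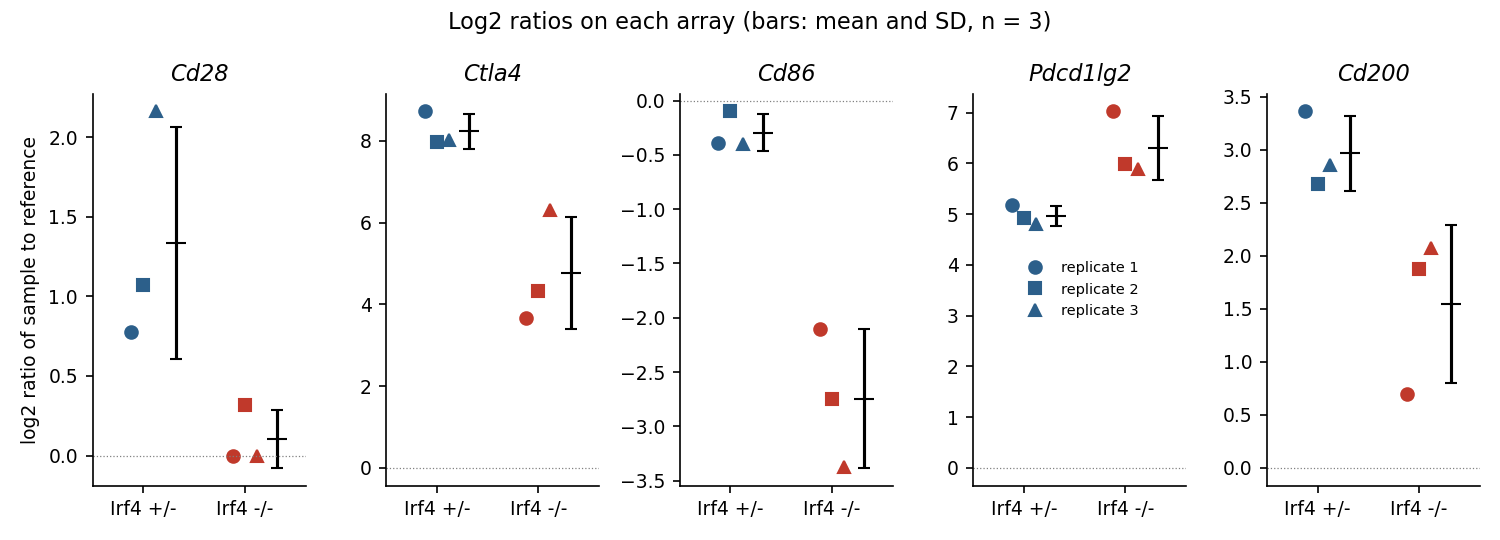
Log2 ratio of sample to reference on each of the 6 arrays, 1 panel a gene, with heterozygous (Irf4 +/-) arrays in blue and null (Irf4 -/-) arrays in red, marker shape for the replicate, and black bars for mean and SD (n = 3); the scale differs between panels and Cd86 is the mean of its 2 features. The groups do not overlap in any panel, and the null arrays spread most for Ctla4, from 3.67 to 6.30.

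Among the receptors, Cd28 had log2 ratios of 0, 0.32 and 0 in null replicates 1, 2 and 3, and of 0.78, 1.07 and 2.16 in heterozygous replicates 1, 2 and 3. The null arrays were all below the heterozygous ones, by at least 0.46, and the highest value stood alone on heterozygous replicate 3. The means were 0.11 ± 0.18 and 1.34 ± 0.73 (SD, n = 3 each), so that the log2 fold change was -1.23 with an SE of 0.37 (interval at 95% confidence -2.12 to -0.34, limma adjusted p = 0.146). Without heterozygous replicate 3 the log2 fold change was -0.82 (adjusted p = 0.215). Both zeros are exact in the deposited table, where an exact 0 can stand for a ratio that was not measured. With zeros treated as missing, 1 null array was left, assumed to vary like the other samples, and the log2 fold change was -1.02 (adjusted p = 0.415). Cd28 lay close to the limit of the authors' selection: its unadjusted p in the authors' deposited table is 0.0469, where the largest listed p is 0.0499 and the smallest p that kept a feature of over 2-fold change off the list was 0.0506.

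Ctla4 had log2 ratios of 3.67, 4.33 and 6.30 in the null replicates and 8.72, 7.96 and 8.02 in the heterozygous replicates. It was far above the reference in every sample, and the null arrays were below all heterozygous arrays, by at least 1.66. The means were 4.77 ± 1.37 and 8.24 ± 0.42 (SD, n = 3 each). The log2 fold change of -3.47 (interval at 95% confidence -5.11 to -1.82, SE 0.68) was the 17th largest fall among 22621 rows, yet its limma adjusted p was 0.0632. Against the heterozygous mean, null replicate 1 lay 23.7-fold lower and null replicate 3 lay 3.82-fold lower. The SD of the null arrays exceeded that of 99.4% of all rows. Without null replicate 3 the log2 fold change was -4.24 and passed (adjusted p = 0.0319), and without null replicate 1 it was -2.92 (adjusted p = 0.116). With any 1 sample left out the adjusted p ran from 0.0319 to 0.205.

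Of the ligands, Cd86 was read by 2 listed features. Only features that the authors listed carry a symbol here, so any other feature of Cd86, or of the other genes described, could not be seen. Both Cd86 features met the authors' limits on these same samples, so their likeness is set in part by that selection. The first gave -2.35, -3.03 and -3.52 in the null replicates and -0.53, -0.11 and -0.71 in the heterozygous replicates. The second gave -1.86, -2.48 and -3.23 against -0.25, -0.09 and -0.09. On both features the null arrays kept the order of replicate 1, 2 and 3 from high to low, and heterozygous cells were just below the reference. Tested one by one, the features had log2 fold changes of -2.52 and -2.38, with limma adjusted p-values of 0.0209 and 0.0261. Averaged, the means were -2.74 ± 0.64 in null and -0.30 ± 0.17 in heterozygous cells (SD, n = 3 each), and the log2 fold change was -2.45 (SE 0.33, 95% confidence interval -3.24 to -1.65, adjusted p = 0.0260). Cd86 also passed without null replicate 1 (0.0307) or null replicate 3 (0.0451). It did not pass without null replicate 2 (0.119) or without heterozygous replicate 1 (0.103), 2 (0.0788) or 3 (0.125). In bulk samples, fewer cells of a type and less RNA per cell cannot be told apart.

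Pdcd1lg2 was the 1 gene of the 5 whose mean was higher in null cells. Its log2 ratios were 7.02, 5.99 and 5.88 in the null replicates and 5.18, 4.93 and 4.80 in the heterozygous replicates, all of them well above the reference. The null arrays were above every heterozygous array, by at least 0.70. The means were 6.30 ± 0.63 and 4.97 ± 0.19 (SD, n = 3 each), and the log2 fold change was 1.33 (interval at 95% confidence 0.54 to 2.12, SE 0.33, limma adjusted p = 0.103). Null replicate 1 lay 4.16-fold above the heterozygous mean and null replicate 3 lay 1.88-fold above it. Without null replicate 1 the log2 fold change was 0.97 (adjusted p = 0.0797).

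Cd200 had log2 ratios of 0.70, 1.88 and 2.07 in the null replicates and 3.36, 2.67 and 2.86 in the heterozygous replicates. The groups were separated by 0.60, and null replicate 1 stood below the other null arrays. The means were 1.55 ± 0.74 and 2.96 ± 0.36 (SD, n = 3 each), and the log2 fold change was -1.42 (interval at 95% confidence -2.39 to -0.44, SE 0.40, limma adjusted p = 0.133). Without null replicate 1 the log2 fold change was -0.99 (adjusted p = 0.144).

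**Figure D2:**
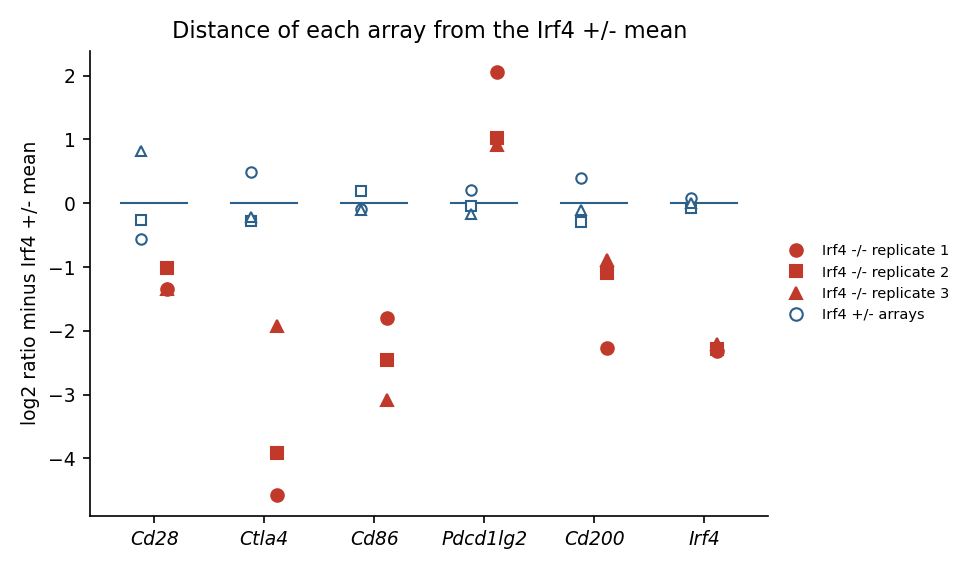
Log2 ratio of each array minus the heterozygous mean of the gene, for the 5 genes and for Irf4, with null arrays in red and heterozygous arrays as open blue symbols, and shape for the replicate as in the legend. Null replicate 1 (circles) is farthest from the heterozygous mean for Ctla4, Pdcd1lg2 and Cd200 and nearest to it for Cd86, while the 3 null values of Irf4 lie within 0.11 of each other.

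The null samples did not keep 1 order over the 5 genes. Null replicate 1 was the array farthest from the heterozygous mean for Ctla4, Pdcd1lg2 and Cd200, and the nearest for Cd86, where null replicate 3 lay 8.45-fold and null replicate 1 lay 3.50-fold below that mean. For Cd28 null replicates 1 and 3 shared the value of 0. Null replicate 1 is also the array with the lowest correlations and the most zeros. Its part in these differences was not tested beyond the values without it, given above. In all 5 genes the groups did not overlap, 4 with lower and 1 with higher null values. The groups did not overlap in 29.8% of all rows, with lower null values in 17.6% and higher in 12.2%, and the authors' selection favours such genes, so the count says nothing particular about these 5.

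Whether the genes changed by unequal amounts was asked from the difference of their log2 ratios within each array, for 10 pairs. With 3 samples against 3 the exact two-sided permutation test cannot give a p under 0.1. In 5 of the 10 pairs the groups did not overlap, each at that smallest p (adjusted p = 0.2 over the pairs). Of these 5 pairs 4 hold Pdcd1lg2, whose opposite direction fixes the result. The other is Ctla4 with Cd200: the log2 ratio of Ctla4 exceeded that of Cd200 by 5.27 ± 0.10 in heterozygous and by 3.22 ± 0.92 in null cells (SD, n = 3 each), a difference of -2.05 (SE 0.53). For Cd28 with Ctla4, the log2 ratio of Cd28 minus that of Ctla4 was -6.90 ± 1.04 in heterozygous and -4.66 ± 1.43 in null cells (SD, n = 3 each), a difference of 2.24 (SE 1.02) with groups that overlapped (exact permutation p = 0.2, adjusted p = 0.286). Since no pair could pass, these p-values do not tell whether the receptors changed by unequal amounts.

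Start regions were available for 3 of the 5 genes, none of which passed the test, but not for Cd28 or for Cd86, which passed. They are shown because Ctla4 and Cd200 lay lower and Pdcd1lg2 higher without the transcription factor IRF4, whose family recognises the core letters GAAA. Given 5′ to 3′ on the strand of the gene are the 250 bases before each annotated start, from RefSeq on build GRCm38.p6, with GAAA, or TTTC for the other strand, in capitals. They lie at chr1:60908775-60909024 (plus strand) for Ctla4, chr16:45409054-45409303 (minus strand) for Cd200 and chr19:29410669-29410918 (plus strand) for Pdcd1lg2.
Ctla4: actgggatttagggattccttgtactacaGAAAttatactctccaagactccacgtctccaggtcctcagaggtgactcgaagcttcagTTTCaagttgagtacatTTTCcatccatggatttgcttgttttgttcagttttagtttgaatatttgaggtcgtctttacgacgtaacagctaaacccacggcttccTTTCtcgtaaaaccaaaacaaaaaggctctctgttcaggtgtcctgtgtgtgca
Cd200: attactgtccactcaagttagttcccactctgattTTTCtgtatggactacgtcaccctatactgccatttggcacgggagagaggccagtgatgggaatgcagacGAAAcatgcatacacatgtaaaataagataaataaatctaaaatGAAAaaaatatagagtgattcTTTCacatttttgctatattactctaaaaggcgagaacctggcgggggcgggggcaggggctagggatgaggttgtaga
Pdcd1lg2: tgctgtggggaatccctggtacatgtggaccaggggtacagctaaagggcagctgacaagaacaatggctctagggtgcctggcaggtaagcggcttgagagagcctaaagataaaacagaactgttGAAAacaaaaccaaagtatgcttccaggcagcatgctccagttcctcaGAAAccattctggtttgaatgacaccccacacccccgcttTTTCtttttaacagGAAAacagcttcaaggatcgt

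Each of these windows, read on to 50 bases after the start, held 4 matches to GAAA on either strand, a string present in 89.2% of the 32851 windows of this kind in the table. Longer elements bound by IRF proteins and their partners were searched on both strands. The paired IRF element GAAANNGAAA, present in 3.44% of windows, was in none of the 3, and neither was the ETS-IRF composite element GGAANNGAAA (2.72% of windows). The AP-1 element TGANTCA (7.81%) and the AP-1-IRF composite elements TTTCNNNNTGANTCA (0.119%) and GAAATGANTCA (0.125%), both of which contain it, were in none either. These counts describe the letters in these windows and give no account of binding elsewhere. The GC content of the 250 bases was 42.4% for Ctla4 and for Cd200 and 48.4% for Pdcd1lg2, against a median of 52.4% over all windows.

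In the order of protein-coding genes on the chromosome (RefSeq, GRCm38.p6), Cd28 and Ctla4 are neighbours, followed by the related receptor gene Icos. Icos was not among the genes named in the authors' deposited table, and neither were Cd274, which encodes PD-L1 and precedes Pdcd1lg2, and Btla, an inhibitory receptor gene beside Cd200. Their levels are not known here, since a gene that the array does not measure and a gene short of the authors' limits are alike in this table. Cd86 is followed by Ildr1, which was named and fell, with a log2 fold change of -4.66 (limma adjusted p = 0.0098) and 2 null values of exactly 0. Stfa3, which lies 2 genes before Cd86, was named too. It went the other way, at 1.05 on the log2 scale, and did not pass (limma adjusted p = 0.117). The named genes beside Cd86 thus did not share 1 direction.

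**Figure D3:**
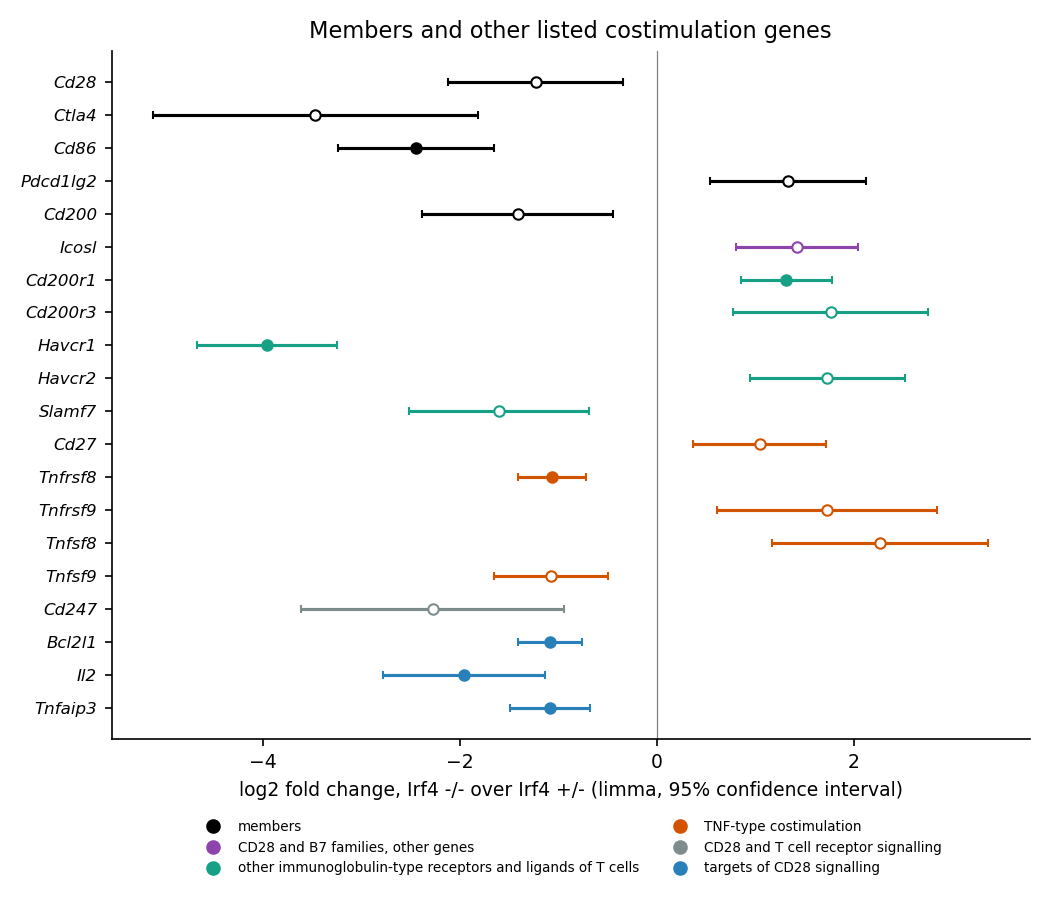
Log2 fold change of null over heterozygous cells with its 95% confidence interval (limma) for the 5 genes, in black, and for the named genes of 5 costimulation lists, by colour; filled points passed an adjusted p of 0.05 and open points did not. Filled among them are Cd86, Havcr1, Tnfrsf8, Bcl2l1, Il2 and Tnfaip3 on the left and Cd200r1 on the right.

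Of 14 other genes, of the CD28 and B7 families or, for Tnfrsf14, of the TNF receptor family, 1 was named. For this list and those below, 828 of the 22749 features were listed by the authors. The test was passed by 2.44% of all rows and 51.9% of the named genes. Icosl, which encodes the ligand of ICOS, had log2 ratios of -2.54, -3.36 and -2.54 in null and -4.38, -4.20 and -4.13 in heterozygous cells (log2 fold change 1.42, SE 0.25, limma adjusted p = 0.0507). Like Pdcd1lg2, its null arrays were all above its heterozygous arrays, though it was below the reference in both groups.

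Of 27 other immunoglobulin-type receptors and ligands, 5 were named, of which 1 rose, 1 fell and 3 did not pass. Cd200r1, which encodes the receptor of CD200, rose 2.49-fold, from 1.67, 1.51 and 1.47 in heterozygous to 2.81, 2.57 and 3.21 in null replicates (adjusted p = 0.0315). With any 1 sample left out it did not pass, at an adjusted p of 0.0514 to 0.151. The receptor gene lay higher and the ligand gene Cd200 lower in each null sample than in any heterozygous sample. Groups that do not overlap were found in 29.8% of all rows, and the authors' selection favours them. This separation therefore says nothing particular about the receptor and its ligand. Cd200r3, a related receptor gene, had log2 ratios of 0.84, 1.69 and 2.50 in null and 0, -0.26 and 0 in heterozygous cells (log2 fold change 1.77, adjusted p = 0.0907), and its exact zeros, like those of Cd28, can stand for ratios that were not measured. Havcr1, which encodes the costimulatory receptor TIM-1, fell by 3.96 on the log2 scale (null replicate 2 is at exactly 0) and kept its call with 1 sample left out in 5 of 6 cases, the exception being null replicate 2 (0.0517). Havcr2, which encodes the inhibitory receptor TIM-3, had 1.73 (adjusted p = 0.0570), and Slamf7, a receptor of the SLAM family, had -1.61 (adjusted p = 0.0939).

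Of 15 genes of TNF-type costimulation, 5 were named, of which 0 rose, 1 fell and 4 did not pass. Tnfrsf8, which encodes CD30, fell 2.10-fold (limma adjusted p = 0.0260, and 1 of 6 fits with a sample left out, that without null replicate 1). Its ligand gene Tnfsf8 had a log2 fold change of 2.27 (adjusted p = 0.0658). Tnfrsf9, which encodes 4-1BB, had 1.73 (adjusted p = 0.119), and its ligand gene Tnfsf9 had -1.08 (adjusted p = 0.0822). Cd27, a costimulatory receptor gene, had 1.04 (adjusted p = 0.119).

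Among 36 genes of CD28 and T cell receptor signalling, which include chains of the receptor complex, 1 was named. Cd247, which encodes the zeta chain of the T cell receptor complex, had log2 ratios of -0.33, 0 and 1.12 in null and 2.56, 3.41 and 1.66 in heterozygous cells (log2 fold change -2.28, limma adjusted p = 0.0998). Its value of 0 is exact and can stand for a ratio that was not measured. Of 18 genes that CD28 signals are known to act on, 3 were named and all 3 fell, where 828 of the 22749 features were listed by the authors, and 51.9% of the named genes and 2.44% of all rows passed the test. Il2, the T cell growth factor gene, fell 3.89-fold (adjusted p = 0.0477), Bcl2l1, the gene of the survival protein Bcl-xL, fell 2.13-fold (0.0217), and Tnfaip3, the gene of A20, which restrains NF-kappaB, fell 2.12-fold (0.0366). With 1 sample left out, Il2 passed in 1 fit of 6 (without null replicate 3), Tnfaip3 in 1 (without heterozygous replicate 2) and Bcl2l1 in 0. Adjusted p-values in these fits ran up to 0.178, 0.155 and 0.120. Each was listed by the authors on these samples, so their direction is not independent evidence.

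Cd86 is also a marker of antigen-presenting cells. Of 24 markers of such cells 2 were named: Itgax, the gene of CD11c, had log2 ratios of -2.40, -3.47 and -2.85 in null and -1.01, -1.95 and -1.77 in heterozygous cells (log2 fold change -1.32, limma adjusted p = 0.123), and H2-DMb1, an MHC class II chaperone gene, rose 2.35-fold (adjusted p = 0.0123). Of 12 B cell markers 1 was named, Cd24a, which fell by 2.39 on the log2 scale (adjusted p = 0.00855). The other markers, among them Cd74 and H2-Aa, were not named, so whether other cells contributed to the Cd86 difference was not tested. Of 12 T cell identity genes 2 were named: Gata3 rose 2.84-fold (adjusted p = 0.0121), and Themis had -1.60 (adjusted p = 0.0516). Cd4 and the Cd3 genes were not named, so the labelled cell type could not be checked against them. Of 11 markers of CD8 T cells and NK cells 5 were named: Nkg7 rose (2.31, adjusted p = 0.0392) and Klre1 fell (-3.57, adjusted p = 0.0388, with 1 null value of exactly 0). Prf1 (2.36, adjusted p = 0.120), Eomes (1.41, adjusted p = 0.130, with 1 heterozygous value of exactly 0) and Cd8a (1.29, adjusted p = 0.143) did not pass. Of these 5 markers, 4 had a higher and 1 a lower mean in null cells. With 1 sample left out, Cd24a lost its call without null replicate 2 (adjusted p = 0.0627) or heterozygous replicate 3 (0.0510). H2-DMb1 and Gata3 lost it without null replicate 2 (0.0930 and 0.0867) or heterozygous replicate 1 (0.0645 and 0.0609) or 3 (0.0916 and 0.0640). Nkg7 kept it only without heterozygous replicate 2 (0.0350), and Klre1 lost it in each of these 6 fits (0.0541 to 0.155). Cd8a was above the reference in each sample, at 4.28 to 4.75 in null and 2.53 to 4.0 in heterozygous cells. The counts of these marker lists stand beside 2.44% of all rows and 51.9% of the named genes that passed the test.

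The named genes with the profile most like each of the 5, by the root mean square difference over the 6 arrays after centring each gene on its heterozygous mean, were found among 687 candidates. For Ctla4 the nearest was Il21, a cytokine gene, with log2 ratios of 5.94, 5.91 and 8.03 in null and 9.88, 9.56 and 9.42 in heterozygous cells, so that null replicate 3 was the highest null array for both. The difference was 0.417, and Abat was the next at 0.607. The median over the candidates was 1.95, but 327 of the named genes lay higher in null cells. The nearest of so many candidates must also fall below their median. Il21 itself did not pass (limma adjusted p = 0.0638). Nearest to Cd28 was Stk32c, a kinase gene, at 0.116 with its highest value also on heterozygous replicate 3, and then Cttnbp2nl at 0.243. Cd86 was nearest to Lgr4, an R-spondin receptor gene, and Prr5l, both at 0.383. Pdcd1lg2 was nearest to Fgf20, a fibroblast growth factor gene, at 0.176 and to Magea3 at 0.188, and Cd200 to Mastl, a mitotic kinase gene, at 0.176 and to Espn at 0.192.

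**Figure D4:**
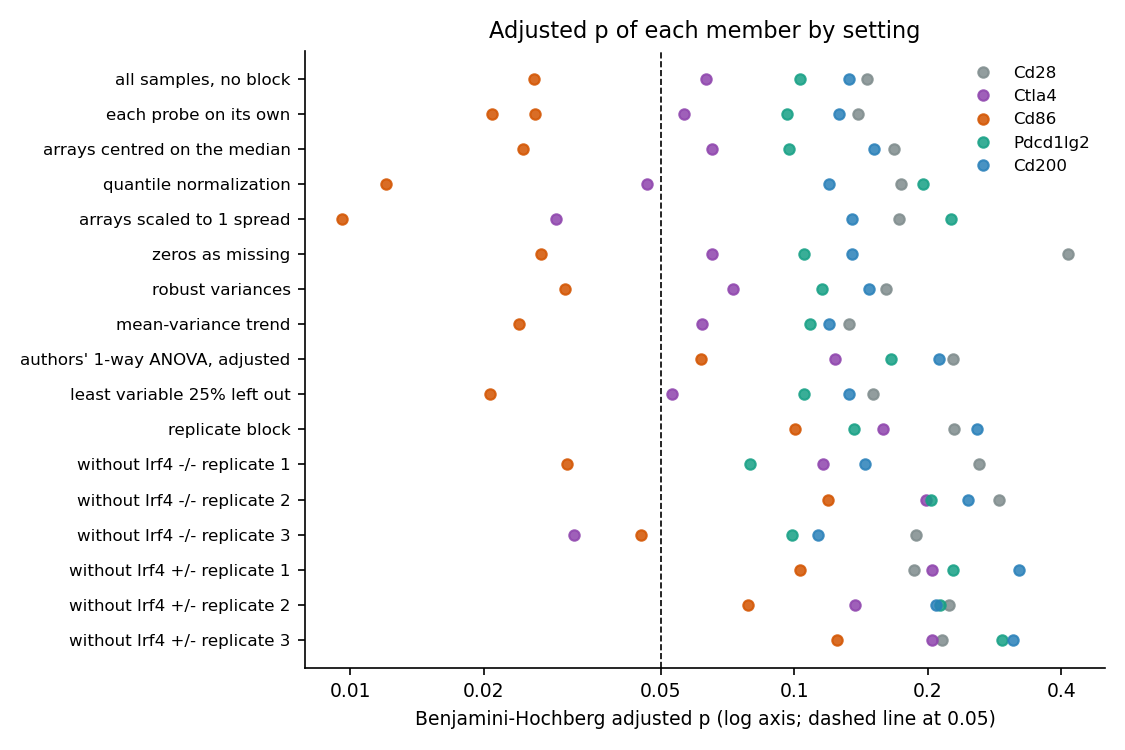
Benjamini-Hochberg adjusted p of the 5 genes (log axis, dashed line at 0.05) with all samples and under each alternative setting, down to the 6 fits that left out 1 sample; Cd86 has 2 points where its features were tested one by one. Cd86 lies left of the line in most settings, Ctla4 in 3, and Cd28, Pdcd1lg2 and Cd200 in none, the lowest of these being 0.0797 for Pdcd1lg2 without null replicate 1.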

How the data were processed

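Per the labels, samples were labelled with Cy5 and the common reference with Cy3, without a dye swap. Per the submitters' processing notes, Agilent Feature Extraction 10.7 and Partek were used; which normalization was applied is not known here. The deposited values are log2 ratios: base and direction between genotypes were settled from group mean differences, which matched the authors' fold changes within 1.03e-05 for 828 listed features, while the direction against the reference was taken from the dyes. Per the file headers, the authors' deposited table gives unadjusted p-values of a 1-way ANOVA (Partek Genomic Suite 6.6) and a signed fold change, read here as a score.

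Gene symbols come from that table, with old ones updated through RefSeq. Listed features of 1 gene were averaged, which left 22621 rows. Genotypes were compared with limma 3.58.1 (R 4.3.3) without covariates, adjusted over all rows (threshold 0.05), after a check on simulated data. Intensities and background flags were not used here, so dim features could not be filtered, and slide or scan batches could not be tested. Named were the 5 genes, Irf4, all named members of the lists and the 2 nearest profiles per gene; Ildr1, the motif GAAA and the neighbouring genes were added after values were seen. The genes and lists were chosen with earlier results of these data known. The description field of heterozygous replicate 3 writes its genotype ambiguously; its title and genotype field do not. The number of arrays limits the precision.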

Additional observations from a re-analysis of the deposited data

How the results depend on the processing

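Of the 5 genes, Cd28, Pdcd1lg2 and Cd200 kept their direction and stayed short of the threshold in all 16 alternatives each, with log2 fold changes of -1.51 to -0.82, 0.97 to 1.54 and -1.68 to -0.99 when 1 sample was left out. Ctla4 passed with quantile normalization (-3.53, adjusted p = 0.0466), with arrays scaled to 1 spread (-3.40, 0.0290) and in 1 of the 6 fits with a sample left out (range -4.24 to -2.92). Cd86 did not pass with the authors' 1-way ANOVA after adjustment (log2 fold change -2.45, p = 0.0618), with the replicate block (-2.45, p = 0.10) or in 4 of the 6 fits with a sample left out (range -2.77 to -2.13). No gene of the 5 changed sign; since their groups do not overlap, leaving out a sample cannot turn them. The count of 551 rows past the threshold became 324 without the least variable 25%, 1296 at an adjusted p under 0.1, 30 to 239 with 1 sample left out, and 385 to 777 under the other settings apart from the block. With the replicate block 13 passed. The deviations of samples with 1 number from their group means had correlations of 0.097, -0.012 and -0.037. The samples numbered 1 were each other's best match, and those numbered 2 or 3 were not. Whether samples with 1 number were handled together is not known here, and these correlations cannot settle it. A fit with 1 sample left out also has fewer degrees of freedom. The cause of the shifts in these counts was not tested.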
